A study of Homo sapiens with 96 samples.

Results

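Cetuximab in HaCaT cells that carry a mutant HRAS was profiled on 6 of the 96 arrays in the series. The 6 were chosen by their labels. They are the HaCaT-HRAS arrays that received no siRNA and either cetuximab at 100 nM (3 arrays) or phosphate-buffered saline (PBS) as the vehicle control (3 arrays), harvested a day after treatment. HaCaT is an immortalized human keratinocyte line that does not form tumours. HaCaT-HRAS is the same line with a constitutively active HRAS construct, and HaCaT-Mock, HaCaT-EGFR and HaCaT-PIK3CA, its comparison lines here, carry an empty vector, extra EGFR or a mutant PIK3CA. RNA levels were read on Affymetrix U133 Plus 2.0 microarrays, and the values are log2 intensities, so that a difference of 1 is a doubling or a halving. Each side of the comparison held 2 arrays of batch J and 1 array of batch M, with the batches as the labels letter them, and every change below is adjusted for batch. Whether the replicates are separate cultures is not in the labels, so the spread that the p-values rest on may be technical.

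The 6 arrays were alike. Correlations between arrays over all genes were 0.9916 to 0.9975 within PBS, 0.9933 to 0.9978 within cetuximab and 0.9909 to 0.997 between the groups. All 9 measured keratinocyte markers of 12 listed were above the median gene level, and their mean level per array was 10.62 to 10.95 in PBS and 10.66 to 11.05 in cetuximab. Of the markers of other cells, 1 of 8 fibroblast genes (COL1A1) and none of 6 endothelial, 5 melanocyte and 6 immune genes reached that median. The probe set of HRAS read 8.48 ± 0.22 (SD, n = 3) in HaCaT-HRAS and 8.68 ± 0.14 (SD, n = 3) in HaCaT-Mock under PBS, so it did not set the line apart from its control. The sources used here do not give which part of the HRAS transcript the construct carries, and this probe set therefore does not check the label. The study itself reported HRAS mRNA above that of HaCaT-Mock by RT-PCR, and more phosphorylated MAP kinase on western blots of HaCaT-HRAS.

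Cetuximab targets the epidermal growth factor receptor (EGFR) from outside the cell, where it competes with EGF and related ligands. In keratinocytes EGFR activates RAS, the kinases RAF, MEK and ERK, and the PI3K pathway. ERK induces early transcription factors of the EGR, FOS and ETS families, growth factors of the EGFR family and the phosphatases and Sprouty proteins that dampen ERK itself. A RAS protein that is always active lies below the receptor in this chain. EGFR signalling also restrains chemokine, interferon-response and differentiation genes in keratinocytes, and the comparison asked which of these genes still respond to the antibody when RAS is fixed in its active form.

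Cetuximab changed 63 of 19775 genes in HaCaT-HRAS at an adjusted p under 0.05 (limma, Benjamini-Hochberg adjustment over all genes). That is 0.319% of all genes, with 29 genes higher (0.147%) and 34 lower (0.172%). The rises were led by the chemokine CCL2, the cytokine LTB and the interferon-response genes IFIT3 and TRIM22, and the falls by the early transcription factors EGR1 and EGR3. Most changes were small. The median of the genes that rose was 0.68 on the log2 scale and that of the genes that fell -0.46, while 5 genes rose and 2 fell by more than 1. The median change of all genes was -0.00. At an unadjusted p under 0.05 there were 1297 genes. The count fell to 28 without PBS replicate 3, 31 without cetuximab replicate 1, 32 without cetuximab replicate 2 and 41 without cetuximab replicate 3, and 8 genes passed on the batch J arrays alone.

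**Figure D1:**
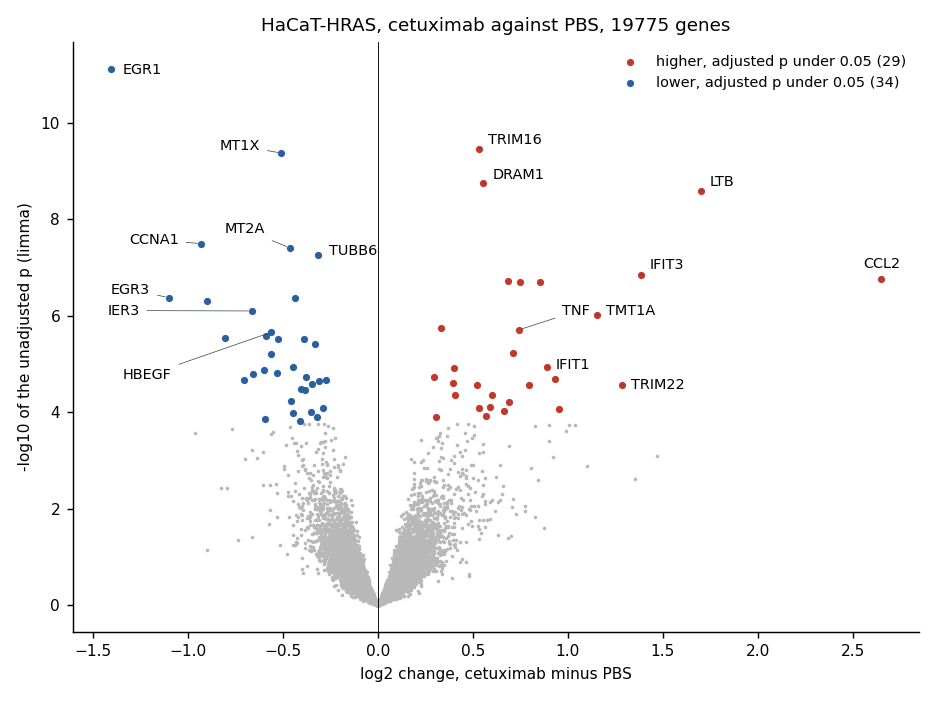
Change under cetuximab in HaCaT-HRAS for 19775 genes (points). The horizontal axis is the log2 change, cetuximab minus PBS, and the vertical axis the negative log10 of the unadjusted limma p, with red for the 29 genes that rose and blue for the 34 that fell at an adjusted p under 0.05. CCL2 lies farthest to the right at 2.65 and EGR1 farthest to the left at -1.40.

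Every changed gene had the same direction in batch J and in batch M, a description of values that the test itself used. The 3 cetuximab arrays lay wholly outside the range of the 3 PBS arrays for 27 of the 29 genes that rose and 32 of the 34 that fell. The exceptions were TNF and ELF4 among the rises and ARL14 and KLF13 among the falls. Over all genes, 5.29% lay wholly higher and 5.62% wholly lower in cetuximab. Of the 63 genes, 31 had further probe sets on the array, 57 in all. Of these, 48 had the direction of the reported probe set, 21 of them at an unadjusted p under 0.05, and none had the other direction at that p.

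EGR1, a zinc-finger transcription factor that ERK induces within minutes, fell most. Its promoter is shown because the serum response elements that couple EGR1 to ERK are CArG boxes, short A and T runs bound by the serum response factor. The run below covers the 200 bases before the RefSeq start of EGR1 (GRCh38.p14, chr5:138465279-138465478, plus strand), and the capitals mark its matches to the CArG box, 105 and 83 bases before the start.
EGR1: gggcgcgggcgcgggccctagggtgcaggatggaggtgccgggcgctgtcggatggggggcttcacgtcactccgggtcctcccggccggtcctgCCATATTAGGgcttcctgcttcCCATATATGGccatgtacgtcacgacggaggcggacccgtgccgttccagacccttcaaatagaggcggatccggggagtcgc
Of 35116 RefSeq promoter windows of this length, 0.982% held such a match on either strand. EGR1 was the 1 of 11 ERK-induced transcription factors with a RefSeq promoter here that did, and 1 of 25 genes that fell and had one. The share counted promoter windows, whereas here and below a gene counted as matched if any of its windows matched.

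EGR1 read 10.57, 10.51 and 10.24 on the PBS arrays and 9.24, 8.97 and 8.90 on the cetuximab arrays. The groups lay a whole log2 unit apart, and the batch M array was the lowest on both sides. EGR1 fell by 1.40 ± 0.16 (SE) on the log2 scale, which is 2.65-fold (adjusted p = 1.47e-07, limma). EGR3, a relative of EGR1 with the same kind of regulation, read 8.37, 8.42 and 8.05 in PBS and 7.21, 7.35 and 6.99 in cetuximab. It too fell in both batches without overlap, by 1.10 ± 0.19 (SE) on the log2 scale (adjusted p = 0.000566, limma). IER3, an early gene that protects from cell death, read 11.13, 11.08 and 11.31 in PBS and 10.45, 10.50 and 10.58 in cetuximab. The IER3 groups did not overlap, and the fall was 0.66 on the log2 scale (adjusted p = 0.000927, limma). IER2, another early nuclear protein, fell by 0.35 (adjusted p = 0.0339, limma). These 4 were the called members among 18 measured ERK-induced transcription factors, a list that also counts early genes such as IER3. None was called higher, and 0.172% of all genes were called lower. In all, 6 of the 18 lay wholly lower and 3 wholly higher in cetuximab, beside 5.62% and 5.29% of all genes. The list's median change was -0.16 against -0.00 for all genes.

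**Figure D2:**
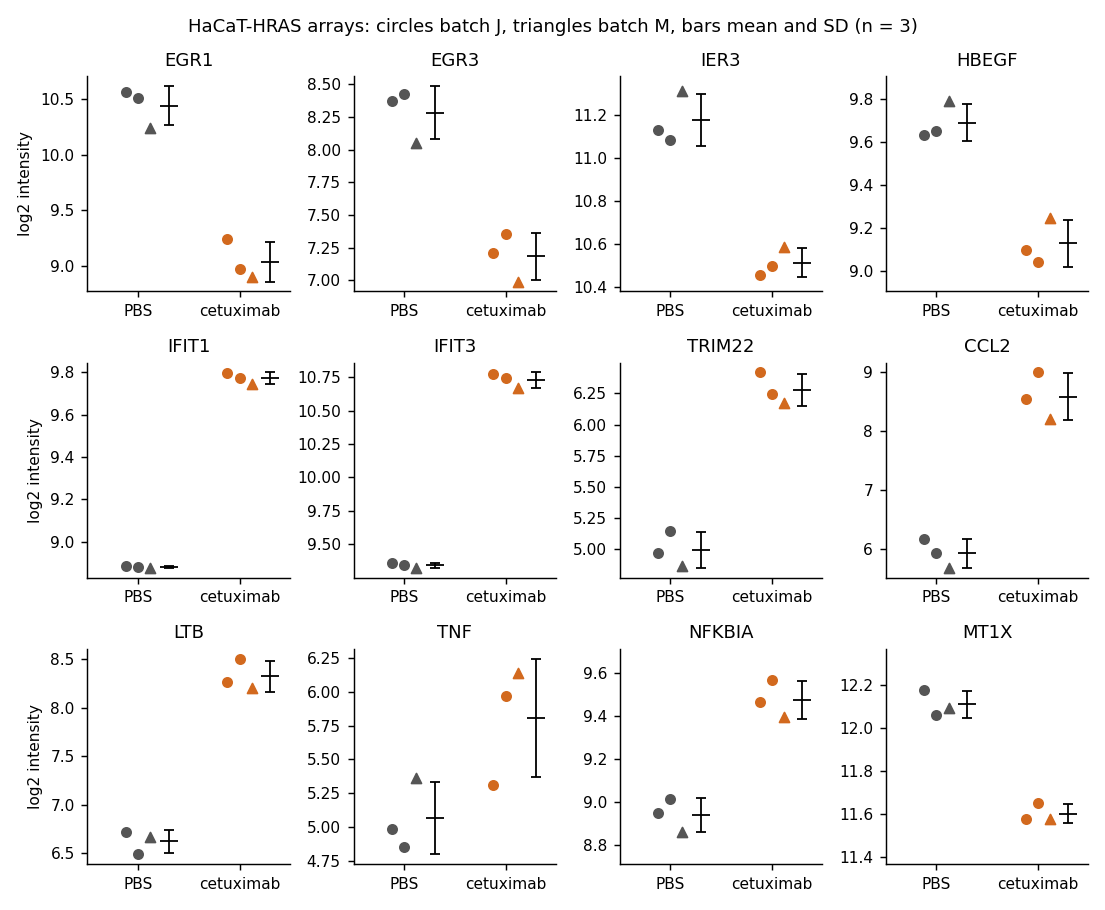
Log2 intensity of 12 genes on the 3 PBS and 3 cetuximab arrays of HaCaT-HRAS, with circles for batch J, triangles for batch M and bars for the mean and SD (n = 3). The vertical axes differ between panels and do not start at 0. EGR1, EGR3, IER3, HBEGF and MT1X sit lower and IFIT1, IFIT3, TRIM22, CCL2, LTB and NFKBIA higher on all cetuximab arrays, while 1 cetuximab array of TNF (5.31) lies below the highest PBS array (5.36).

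HBEGF, the heparin-binding ligand of EGFR, was the one called member of 6 measured EGFR family ligands. It read 9.63, 9.65 and 9.79 in PBS and 9.10, 9.04 and 9.25 in cetuximab. All cetuximab arrays were lower, and the fall was 0.56 ± 0.11 (SE) on the log2 scale (adjusted p = 0.00208, limma). The ligands TGFA (-0.07) and NRG1 (-0.12) did not pass. Neither did any of 4 EGFR family receptors, and EGFR itself differed by -0.07 on the log2 scale (95% confidence interval -0.26 to 0.12).

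None of the 16 measured feedback inhibitors of ERK passed the test, and their median change was -0.10. DUSP6, the phosphatase that removes phosphate from ERK in the cytoplasm, read 11.07, 11.13 and 10.99 in PBS and 10.65, 10.45 and 10.50 in cetuximab. The cetuximab arrays were lower without overlap, by 0.53 in the mean, yet the gene did not pass (adjusted p = 0.496, limma). DUSP7, a close relative, behaved alike with -0.43 (adjusted p = 0.0816, limma), as did DUSP4 with -0.40 (adjusted p = 0.414, limma). In all, 5 of the 16 lay wholly lower and 1 wholly higher in cetuximab, beside 5.62% and 5.29% of all genes. ETV5, an ETS factor that ERK induces, read 8.60, 8.61 and 8.71 in PBS and 8.57, 8.43 and 8.81 in cetuximab, so its groups overlapped and its change was -0.04.

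Interferon-response genes were among the rises. IFIT1 and IFIT3 encode partner proteins that bind foreign RNA, TRIM22 an antiviral ubiquitin ligase and CMPK2 a mitochondrial nucleotide kinase, and all 4 are induced through the interferon-stimulated response element (ISRE). The 200 bases before the RefSeq starts of IFIT1 (GRCh38.p14, chr10:89392423-89392622, plus strand) and of the first RefSeq promoter of IFIT3 (chr10:89327797-89327996, plus strand) are shown because they hold this element in pairs. Capitals mark matches to GAAANNGAAA on either strand, here read from the other strand, 116 and 103 bases before the start of IFIT1 and 156 and 122 bases before that of IFIT3.
IFIT1: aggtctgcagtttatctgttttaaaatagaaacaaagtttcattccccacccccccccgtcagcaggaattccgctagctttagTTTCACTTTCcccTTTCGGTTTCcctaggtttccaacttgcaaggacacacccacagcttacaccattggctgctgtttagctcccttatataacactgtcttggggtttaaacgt
IFIT3: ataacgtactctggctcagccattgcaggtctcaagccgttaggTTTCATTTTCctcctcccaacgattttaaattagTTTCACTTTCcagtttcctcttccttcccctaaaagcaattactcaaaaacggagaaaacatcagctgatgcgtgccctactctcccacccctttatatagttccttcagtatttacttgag
A match was present in 2.4% of 35116 promoters, in 19 of 29 interferon-response genes with a RefSeq promoter here, in 4 of 21 genes that rose and in 3 of 25 that fell.

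IFIT3 read 9.36, 9.35 and 9.32 on the PBS arrays and 10.78, 10.74 and 10.67 on the cetuximab arrays. The arrays of each group stood close together and far from the other group, and IFIT3 rose by 1.38 ± 0.23 (SE) on the log2 scale, 2.61-fold (adjusted p = 0.000308, limma). IFIT1 read 8.89, 8.88 and 8.88 in PBS and 9.80, 9.77 and 9.74 in cetuximab, and rose by 0.89 with the same tightness (adjusted p = 0.00769, limma). TRIM22 read 4.97, 5.15 and 4.87 in PBS and 6.42, 6.24 and 6.17 in cetuximab. It rose by 1.28 without overlap (adjusted p = 0.012, limma), although its level in PBS was below the median gene. CMPK2, also below the median gene, rose by 0.80 (adjusted p = 0.012, limma).

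Of 36 measured interferon-response genes, these 4 rose and none fell. The median change of the 36 was 0.23, and 32 of them lay above 0. On 17 of the 36 the cetuximab arrays were wholly higher, beside 5.29% of all genes. Genes of antigen presentation, which interferon also induces, lay the same way without passing. Their median change was 0.28 over 13 genes, 5 of them wholly higher in cetuximab. The immunoproteasome subunit PSMB9 read 0.54 higher (adjusted p = 0.112, limma) and PSMB10 0.45 (adjusted p = 0.2, limma), the peptide-trimming enzyme ERAP1 0.42 (adjusted p = 0.0873, limma) and B2M, the invariant chain of MHC class I, 0.14. The immune cell markers were near background on all 6 arrays, with mean levels of 4.492 to 4.714 in PBS and 4.494 to 4.571 in cetuximab. In bulk RNA, a change in the number of cells that express a gene and a change in the RNA of each cell cannot be told apart.

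CCL2, the chemokine that attracts monocytes, rose most of all genes. LTB, the membrane-bound cytokine lymphotoxin beta, came next, and both belong to the genes that NF-kB can induce, as do the cytokine TNF and NFKBIA, the inhibitor that holds NF-kB in the cytoplasm. The promoters of LTB (200 bases before the RefSeq start, GRCh38.p14, chr6:31582426-31582625, minus strand) and NFKBIA (chr14:35404750-35404949, minus strand) are shown for their matches to the kappa B site, in capitals, 86 bases before the start of LTB and 81 bases before that of NFKBIA.
LTB: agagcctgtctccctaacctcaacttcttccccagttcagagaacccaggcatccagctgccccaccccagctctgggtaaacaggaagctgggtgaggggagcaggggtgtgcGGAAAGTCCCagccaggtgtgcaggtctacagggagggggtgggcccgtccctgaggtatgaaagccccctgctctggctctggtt
NFKBIA: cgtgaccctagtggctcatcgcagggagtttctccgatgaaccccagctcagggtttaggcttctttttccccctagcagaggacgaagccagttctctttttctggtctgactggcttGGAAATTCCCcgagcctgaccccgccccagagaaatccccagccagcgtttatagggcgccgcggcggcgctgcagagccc
Such a match on either strand was found in 8.14% of all promoters, in 4 of 9 NF-kB response genes and in 3 of 21 genes that rose.

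CCL2 read 6.17, 5.94 and 5.68 in PBS and 8.55, 9.0 and 8.20 in cetuximab. The lowest cetuximab array stood 2 log2 units above the highest PBS array, and the rise was 2.65 ± 0.44 (SE) on the log2 scale, 6.27-fold (adjusted p = 0.000308, limma). LTB read 6.72, 6.49 and 6.66 in PBS and 8.27, 8.51 and 8.20 in cetuximab, and rose by 1.70 ± 0.24 (SE), 3.25-fold, again without overlap (adjusted p = 1.04e-05, limma). NFKBIA read 8.95, 9.02 and 8.86 in PBS and 9.47, 9.57 and 9.39 in cetuximab. It rose by 0.53 on all arrays (adjusted p = 0.0295, limma). TNF read 4.98, 4.85 and 5.36 in PBS and 5.31, 5.97 and 6.14 in cetuximab, low on all arrays. The batch M array was the highest on each side, so the groups overlapped, while the batch-adjusted rise of 0.74 passed (adjusted p = 0.00194, limma).

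TNF and NFKBIA were the called members of 11 measured NF-kB response genes, beside 0.147% of all genes called higher. All 11 lay above 0 with a median change of 0.31, and 8 were wholly higher in cetuximab, beside 5.29% of all genes. TNFAIP2, a TNF-induced protein of cell protrusions, read 0.99 higher without passing (adjusted p = 0.0601, limma). Of 21 chemokine and interleukin genes CCL2 alone rose. IL24, a cytokine of the interleukin-10 family, fell by 0.66 (adjusted p = 0.0095, limma), from 5.98, 5.70 and 6.02 in PBS to 5.07, 5.27 and 5.38 in cetuximab. Its arrays did not overlap. IL1B read 0.35 lower without passing (adjusted p = 0.316, limma).

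Metallothioneins are small cysteine-rich proteins that bind zinc and copper, and 6 of them fell, each by a small step. MT1X and MT2A were among the largest falls, and the rest of the family was taken up after their values were seen. The promoters of MT1X (200 bases before the RefSeq start, GRCh38.p14, chr16:56682270-56682469, plus strand) and MT2A (chr16:56608384-56608583, plus strand) are shown for their metal response elements, the sites of the zinc-sensing factor MTF1. Capitals mark matches on either strand to TGCACNC or TGCGCNC.
MT1X: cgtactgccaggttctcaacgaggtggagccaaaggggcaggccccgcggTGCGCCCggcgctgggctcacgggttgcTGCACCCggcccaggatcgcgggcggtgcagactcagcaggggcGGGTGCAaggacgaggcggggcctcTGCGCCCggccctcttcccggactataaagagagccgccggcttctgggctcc
MT2A: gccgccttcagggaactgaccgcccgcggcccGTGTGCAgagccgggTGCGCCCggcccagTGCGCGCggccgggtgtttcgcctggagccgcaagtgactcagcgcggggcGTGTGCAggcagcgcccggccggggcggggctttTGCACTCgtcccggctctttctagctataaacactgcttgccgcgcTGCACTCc
MT1X held 4 matches and MT2A 6. This short motif occurred in 21.4% of all promoters, in 15 of 25 genes that fell and in 7 of 21 that rose. The 25 include MT1X and MT2A themselves, and all 6 metallothioneins are among the genes that fell. The count is therefore not independent of the choice of motif, and it was not split into metallothioneins and other genes.

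MT1X read 12.18, 12.06 and 12.09 in PBS and 11.58, 11.65 and 11.57 in cetuximab. The spread within each group was small beside the gap between them, and the fall was 0.51 ± 0.07 (SE) on the log2 scale (adjusted p = 2.8e-06, limma). MT2A read 12.74, 12.70 and 12.67 in PBS and 12.26, 12.30 and 12.17 in cetuximab, and fell by 0.46, also without overlap (adjusted p = 0.000111, limma). MT1G (-0.44), MT1H (-0.39), MT1HL1 (-0.34) and MT1F (-0.33) passed as well. MT1E read 0.17 lower on arrays that did not overlap, but did not pass (adjusted p = 0.64, limma). MT1M, MT3 and MT4 read below the median gene and did not pass. The probe sets of the 7 expressed members share bases with their relatives, so the array may not tell these genes apart, and their falls are not independent of each other.

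Secreted and matrix proteins changed in both directions. TGFB2, a ligand of the TGF-beta receptor, rose by 0.96 (adjusted p = 0.0317, limma), from 6.97, 7.06 and 6.50 in PBS to 7.91, 7.82 and 7.66 in cetuximab. TNC, the matrix protein tenascin C of wounds, read 6.19, 6.15 and 5.66 in PBS and 6.68, 6.86 and 6.51 in cetuximab. Both groups of TNC stood apart, and the rise was 0.68 (adjusted p = 0.000308, limma). The matrix protease ADAMTS9 rose by 0.93, the natriuretic peptide gene NPPB by 0.85 and the matrix adaptor MATN2 by 0.59. SERPINE2, a secreted inhibitor of thrombin and urokinase, fell by 0.53 (adjusted p = 0.0091, limma). TGFB2 was the called member of 14 TGF-beta response genes, whose median change was -0.08, and TNC that of 17 secreted and surface genes induced by ERK, whose median was -0.10. GZMB, a serine protease best known from cytotoxic lymphocytes, read 5.89, 5.92 and 5.56 in PBS and 5.09, 4.87 and 4.72 in cetuximab. Its fall of 0.90 passed (adjusted p = 0.000613, limma), and the immune cell markers had the mean levels given above, which overlapped between the groups.

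Among the other changed genes, the cyclin CCNA1, which in adults is mainly made in the testis, fell from 7.34, 7.28 and 6.90 to 6.54, 6.22 and 5.96. The groups did not overlap, and the fall was 0.93 on the log2 scale (adjusted p = 0.000106, limma). The forkhead factor FOXQ1 fell by 0.53, the receptor phosphatase PTPRE by 0.59, the calcium sensor HPCAL1 by 0.60 and RNASE7, an antimicrobial ribonuclease of the skin, by 0.56. TMT1A, a membrane thiol methyltransferase, read 4.42, 4.54 and 4.06 in PBS and 5.77, 5.45 and 5.27 in cetuximab. It rose by 1.16 (adjusted p = 0.00107, limma) from a level below the median gene. The rise rests on this probe set. Its other probe sets changed by 0.11, -0.05 and 0.05, none at an unadjusted p under 0.05 (limma). The first of those had a mean level of 7.10 over the 6 arrays, against 4.92 for the reported one. The glucose transporter SLC2A12 rose by 0.66, the calcium pump ATP2C2 by 0.60, the peroxisomal enzyme EHHADH by 0.69, the pseudogene WFDC21P by 0.75 and the carboxypeptidase CPVL by 0.57. TRIM16 (0.53) and DRAM1 (0.56), proteins of the autophagy and lysosome system, rose with small errors (adjusted p = 2.8e-06 and 8.74e-06, limma). LSS, which closes the sterol ring, rose by 0.40 and was the called member of 15 sterol synthesis genes.

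No gene of the cell cycle, differentiation or stress lists passed. Of 18 S phase genes and 19 genes of G2 and M phase none changed, with medians of 0.01 and -0.05 and changes between -0.16 and 0.13 over both lists. None of 16 cornified envelope genes (median -0.05), 19 suprabasal differentiation genes (median 0.02) and 10 basal keratinocyte genes (median -0.10) changed. IVL, which encodes the envelope protein involucrin, read 6.48, 6.52 and 6.21 in PBS and 6.48, 6.42 and 6.30 in cetuximab. Those groups overlapped, and the difference was -0.00 (95% confidence interval -0.36 to 0.35). The 17 FOXO targets (median 0.04), 11 p53 targets (-0.03), 11 regulators of G1 (-0.01), 16 ATF4 stress genes (0.20) and 11 ribosome biogenesis genes (-0.12, with none above 0) held no called member either.

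The study centred on AP-2alpha, a transcription factor of keratinocytes encoded by TFAP2A, and on growth factor receptor genes it binds. TFAP2A read 9.93 ± 0.06 (SD, n = 3) in PBS and 9.96 ± 0.03 (SD, n = 3) in cetuximab, a difference of 0.02 (95% confidence interval -0.09 to 0.14). None of 5 AP-2 family factors passed. The study named receptor and ligand genes by their direction after EGFR inhibition in HaCaT-EGFR and HaCaT-Mock. For HaCaT-HRAS it reported a disrupted signature by RT-PCR after afatinib, with BMP2, BMP4, VEGFA and TGFA changing opposite to HaCaT-EGFR. The values that follow are array values under cetuximab, another drug and another measure. In HaCaT-HRAS none of the 4 it named as falling passed, TGFA (-0.07), VEGFA (-0.02), FGFR4 (-0.15) and TGFBR3 (-0.34), and neither did EGFR (-0.07), ERBB2 (0.04), IGF1R (0.03), BMP2 (0.04) and BMP4 (-0.29), named as rising. It chose these genes on arrays of this series.

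**Figure D3:**
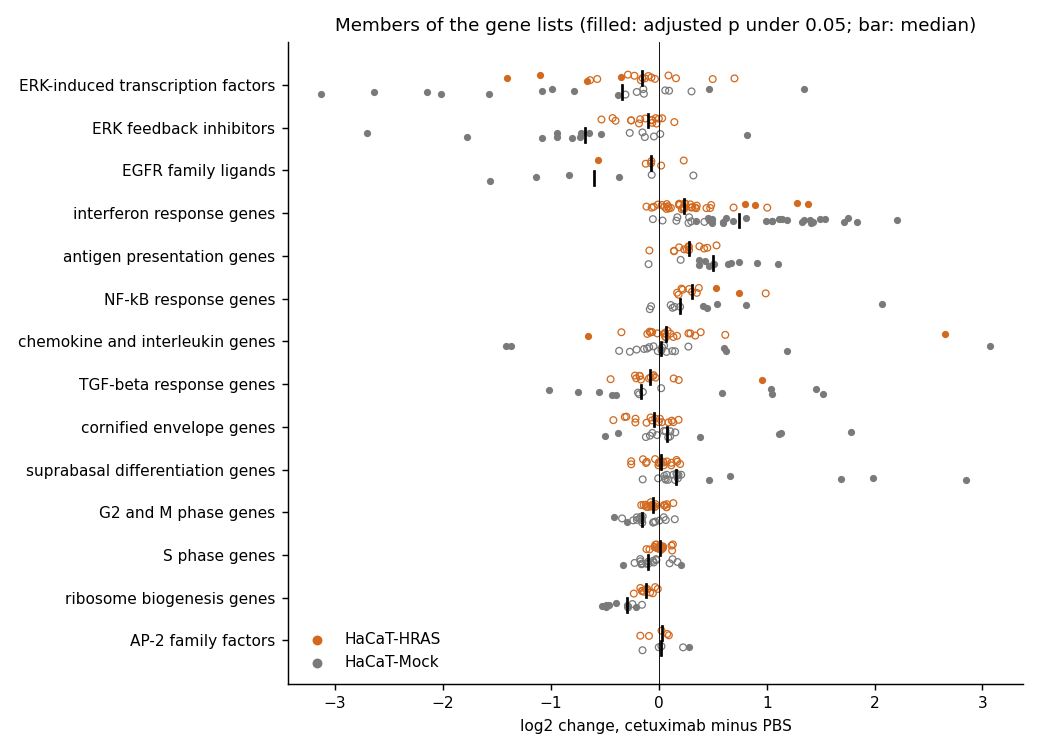
Log2 change under cetuximab (horizontal axis) of the measured members of 14 gene lists (rows) in HaCaT-HRAS (orange) and HaCaT-Mock (grey), filled where the adjusted p is under 0.05, with black bars at the medians. The medians of the interferon-response genes are 0.23 in HaCaT-HRAS and 0.75 in HaCaT-Mock, and those of the ERK feedback inhibitors -0.10 and -0.68.

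The same antibody dose changed more genes in the other lines. With 3 PBS and 3 cetuximab arrays each, and 2 PBS arrays in HaCaT-EGFR, it changed 2852 genes in HaCaT-Mock (14.4% of all genes, 7.07% higher and 7.35% lower), 2734 in HaCaT-EGFR (13.8%) and 3495 in HaCaT-PIK3CA (17.7%). The difference between lines was tested directly, as the cetuximab response in HaCaT-HRAS minus that in the other line. It passed for 287 genes against HaCaT-Mock (1.45%), 429 against HaCaT-EGFR (2.17%) and 305 against HaCaT-PIK3CA (1.54%). The 3 tests share the HaCaT-HRAS arrays. Batch was balanced between PBS and cetuximab in HaCaT-HRAS and HaCaT-PIK3CA. In HaCaT-Mock and HaCaT-EGFR the cetuximab arrays include a batch M array and the PBS arrays do not. The differences from those lines therefore lean more on the batch term. Against HaCaT-Mock, 137 differences were above 0 (0.693%) and 150 below (0.759%). Those counts were 26 against HaCaT-Mock, 111 against HaCaT-EGFR and 40 against HaCaT-PIK3CA on batch J arrays alone, which left fewer arrays per line. Leaving out 1 array at a time gave as few as 168 (without PBS replicate 2 of HaCaT-HRAS), 176 (without PBS replicate 1 of HaCaT-EGFR) and 150 (without PBS replicate 2 of HaCaT-HRAS).

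Genes that ERK induces were among the largest differences from HaCaT-Mock. ETV5 was at 8.33 ± 0.13 (SD, n = 3) in HaCaT-Mock under PBS and at 5.67 ± 0.29 (SD, n = 3) under cetuximab, while in HaCaT-HRAS it was at 8.64 ± 0.06 and 8.60 ± 0.19 (SD, n = 3 each). Its difference in response was 2.61 ± 0.32 (SE; adjusted p = 5.17e-07, limma). DUSP6 was at 9.94 ± 0.39 and 7.14 ± 0.75 in HaCaT-Mock and at 11.06 ± 0.07 and 10.53 ± 0.10 in HaCaT-HRAS (SD, n = 3 each), so that the cetuximab arrays of HaCaT-HRAS (10.45 to 10.65) all read above the PBS arrays of HaCaT-Mock (9.49 to 10.18). These levels are not adjusted for batch, and HaCaT-Mock also holds batch E arrays. The difference in response of DUSP6 was 2.17 ± 0.30 (SE; adjusted p = 3.77e-06, limma). EGR1, which did fall in HaCaT-HRAS, fell by 3.13 in HaCaT-Mock, and the difference of 1.73 passed (adjusted p = 2.08e-06, limma). The falls of IER3 and HBEGF were likewise smaller than in HaCaT-Mock, by 0.91 and 1.00. Of the 18 ERK-induced transcription factors 5 passed above 0 and none below, and of the 16 feedback inhibitors 3 passed above 0 and 1 below. Secreted and surface genes induced by ERK went both ways, with 5 of 17 above 0, 2 below and a median difference of 0.10. Of all genes 0.693% passed above 0 and 0.759% below.

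Other genes that fell in HaCaT-Mock and differed above 0 were the noncoding RNA LINC00973 (difference 2.50), NT5E, the surface enzyme CD73 (2.20), the decoy receptor IL1R2 (1.90), the BMP antagonist NOG (1.78) and IL1B (1.07). NOG changed by 0.06 in HaCaT-HRAS and by -1.72 in HaCaT-Mock. IL1R2 was at 6.78 ± 0.78 (SD, n = 3) in HaCaT-Mock under PBS and 4.26 ± 0.05 under cetuximab, against 8.93 ± 0.14 and 8.37 ± 0.11 in HaCaT-HRAS. NT5E, LINC00973 and IL1R2 read lower in HaCaT-HRAS too, by 0.52, 0.66 and 0.57, without passing. The differences of these genes from HaCaT-EGFR and from HaCaT-PIK3CA, which share the HaCaT-HRAS arrays, passed as well.

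Several differentiation genes rose in HaCaT-Mock and not detectably in HaCaT-HRAS. KRT4, a keratin of stratified mucosa, went from 5.86 ± 0.12 (SD, n = 3) to 8.81 ± 0.07 in HaCaT-Mock, and read 4.99 ± 0.34 and 5.11 ± 0.33 (SD, n = 3) in HaCaT-HRAS. The difference in response was -2.73 ± 0.43 (SE; adjusted p = 4.13e-05, limma). Its partner KRT13 differed by -1.81 and IVL by -1.78. ID1, a target of BMP signalling, differed by -1.64, the death ligand TNFSF10 by -1.94 and RGS2, which slows G protein signals, by -1.60. The values against HaCaT-EGFR and HaCaT-PIK3CA were -2.82 and -2.31 for KRT4, -2.31 and -1.48 for IVL and -1.52 and -1.66 for ID1, all past the test. For RGS2 the difference from HaCaT-EGFR, -0.54, did not pass (adjusted p = 0.492, limma).

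**Figure D4:**
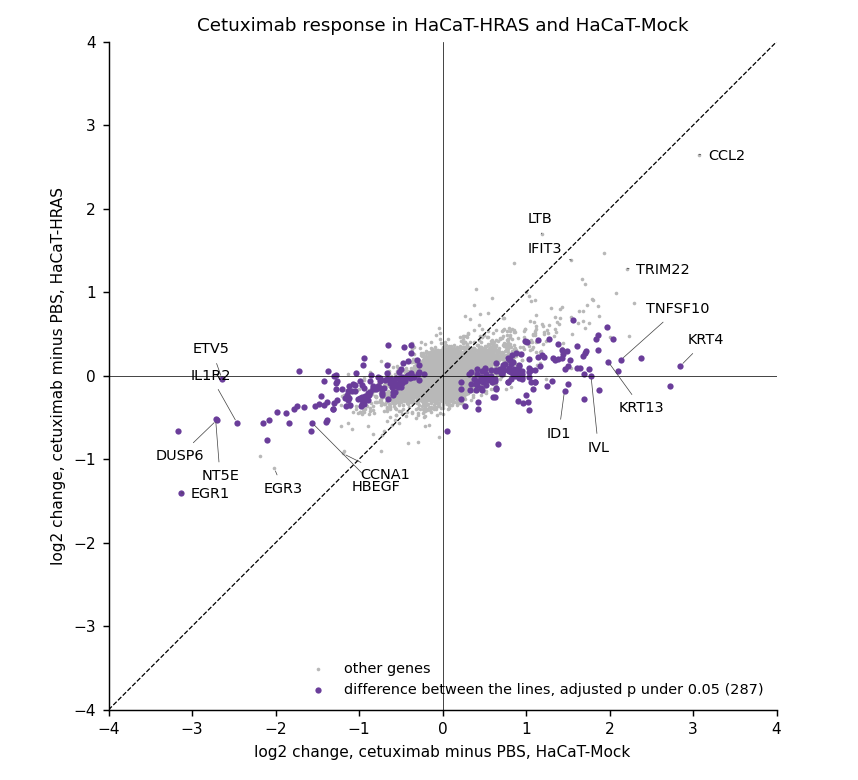
Log2 change under cetuximab of 19775 genes in HaCaT-Mock (horizontal axis) and HaCaT-HRAS (vertical axis), with the 287 genes whose difference passed the test in purple and a dashed line at equal change. ETV5, KRT4 and IVL lie near 0 on the vertical axis and beyond 1.7 in size on the horizontal one, whereas CCL2, LTB and IFIT3 lie near the dashed line.

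Most interferon-response genes had a lower response in HaCaT-HRAS than in HaCaT-Mock, with 6 of the 36 differences above 0. In HaCaT-Mock 28 of the 36 genes rose, beside 7.07% of all genes, with a median change of 0.75. The difference passed for 10 of the 36, all of them lower in HaCaT-HRAS, beside 0.759% of all genes. The median difference of the 36 was -0.52. XAF1 and MX1, picked after their values were seen, changed by 0.08 and 0.44 in HaCaT-HRAS and by 1.76 and 1.83 in HaCaT-Mock. Their differences were -1.67 (adjusted p = 0.00361, limma) and -1.39 (adjusted p = 0.0014, limma). Against HaCaT-EGFR 3 and against HaCaT-PIK3CA 7 of the 36 passed, again all lower in HaCaT-HRAS. Of all genes 2.17% and 1.54% passed those tests in either direction. IFIT3 (difference from HaCaT-Mock -0.16), IFIT1 (-0.16), TRIM22 (-0.93) and CMPK2 (-0.61) did not pass. Nor did any of the 11 NF-kB response genes, or CCL2, which changed by 2.65 in HaCaT-HRAS, 3.07 in HaCaT-Mock, 3.15 in HaCaT-EGFR and 3.05 in HaCaT-PIK3CA. The CCL2 difference from HaCaT-Mock was -0.42, with a 95% confidence interval of -1.67 to 0.83.

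Most of the 63 genes had the same direction in every line. In HaCaT-Mock 28 of the 29 that rose and 33 of the 34 that fell in HaCaT-HRAS had the same direction, and 26 and 26 of them passed there. The corresponding numbers were 26 and 32 in HaCaT-EGFR and 28 and 33 in HaCaT-PIK3CA. Over all genes 52.5% were above and 47.5% below 0 in HaCaT-Mock. Of the 63, 6 passed the test of the difference from HaCaT-Mock. IL24 was lower by 0.66 in HaCaT-HRAS and changed by 0.05 in HaCaT-Mock (difference -0.71, adjusted p = 0.0496, limma). The other 5, EGR1, IER3, HBEGF, SERPINE2 and SLC2A12, moved the same way in both lines and less in HaCaT-HRAS. CPVL stood against the pattern, with a rise of 0.57 in HaCaT-HRAS and changes of -0.56 in HaCaT-EGFR and -0.40 in HaCaT-PIK3CA, both differences past the test (adjusted p = 0.000405 and 0.0024, limma). Its level under PBS was 6.80 ± 0.36 in HaCaT-HRAS and 4.36 ± 0.15 in HaCaT-Mock (SD, n = 3).

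Afatinib and gefitinib, small molecules that block the kinase domain of EGFR from inside the cell, were given to HaCaT-HRAS at 10 nM and 100 nM (3 arrays each). The PBS arrays are the same for all 3 inhibitors, so the changes are set side by side and were compared by testing one drug's arrays against another's. CCL2 changed by 2.65 under cetuximab, 2.67 under afatinib and 2.35 under gefitinib, LTB by 1.70, 1.38 and 1.60, and IFIT3 by 1.38, 1.56 and 1.33. EGR1 changed by -1.40 under cetuximab, -0.68 under afatinib and -0.78 under gefitinib. It was lower under cetuximab than under gefitinib by 0.63 (adjusted p = 0.0217, limma), and than under the lower dose of afatinib by 0.72, which did not pass (adjusted p = 0.0558, limma). EGR3 did not follow EGR1, with -1.10, -0.91 and -1.36. On its reported probe set TMT1A rose less under cetuximab, by 1.16, than under afatinib, by 2.11 (adjusted p = 0.0467, limma), or gefitinib, by 2.05 (adjusted p = 0.0182, limma).

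Between cetuximab and afatinib 12 genes passed (0.0607% of all genes), 1 higher and 11 lower under cetuximab, among them TMT1A alone of the 63. The doses differ, and on all arrays 1502 genes had an unadjusted p under 0.05. None passed in limma without cetuximab replicate 2, 6 without cetuximab replicate 3 and 2 each without afatinib replicate 1 or 3. Between cetuximab and gefitinib, both at 100 nM, 1528 genes passed (7.73%), 9 of the 63 among them. That count rested on single arrays. Gefitinib replicate 1 had an array weight of 0.059 in limma and replicate 3 one of 0.408, against 0.828 to 1.71 for the PBS, cetuximab and afatinib arrays, and with these weights 2 genes passed. The count was 2 without gefitinib replicate 1, 2917 without replicate 2 and 5090 without replicate 3 of gefitinib, and 52, 3 and 39 without cetuximab replicate 1, 2 or 3. IL24 read 0.66 lower under cetuximab and 0.18 lower under gefitinib (adjusted p of the difference 0.0309, limma). Without gefitinib replicate 1 none of EGR1 (-0.76), TMT1A (-0.88) and IL24 (-0.21) passed, with adjusted p of 0.221, 0.504 and 0.796 (limma), nor did any of them with array weights or without cetuximab replicate 2 or 3. The difference of TMT1A from afatinib passed in none of the fits that left out 1 array, with values of -1.05 to -0.89.

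Further HaCaT-HRAS arrays carried siRNA. With a scramble siRNA present, 1 cetuximab array was compared with 2 PBS arrays in a fit that takes the lone array to vary as the other groups do. EGR1 (-1.26), TMT1A (1.78), CMPK2 (1.42) and LRRC7 (1.46), a synaptic scaffold protein, were the 4 genes that passed (0.0202%), with 1907 at an unadjusted p under 0.05. PBS replicate 1 is of batch J, and PBS replicate 2 and the cetuximab array are of batch E, so that the change is batch-adjusted and is not the plain difference of the readings. EGR1 read 9.66 and 9.68 on the PBS arrays and 8.10 on the cetuximab array. CCL2 read 5.58 and 5.75 in PBS and 8.15 in cetuximab (adjusted p = 0.0757, limma). All 29 genes that rose without siRNA were above 0 here, and 31 of the 34 that fell were below 0, beside 47.5% and 52.5% of all genes. Their medians were 0.49 and -0.34. The comparison of these arrays did not choose the 63 genes. Without PBS replicate 1 again 4 genes passed, of the named ones EGR1 and TMT1A, and without PBS replicate 2 there were 10, of the named ones CMPK2 alone.

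EGFR itself was lowered by siRNA on other HaCaT-HRAS arrays. siEGFR reduced EGFR from 10.44 ± 0.46 with scramble siRNA to 8.47 ± 0.44 (SD, n = 3 each), a change of -1.97 on the log2 scale (adjusted p = 1.45e-22, limma), and changed 1243 genes (6.29%), 3.6% of all genes higher and 2.69% lower. Without siEGFR replicate 2 it was 808 genes. Of the 29 genes that rose under cetuximab 23 were above 0, beside 48.3% of all genes. Of these 29, 8 passed as higher, among them CCL2 (1.58), LTB (0.95), TRIM22 (1.16), TMT1A (1.13), TGFB2 (0.80) and IFIT1 (0.66), while 2 passed as lower. Of the 34 that fell, 17 were below 0, near the share of 51.7% of all genes. Of these 34, 5 passed as lower, among them EGR1 (-0.54), HBEGF (-0.64) and SERPINE2 (-0.47), and 4 passed the other way, namely IL24 (0.60), GZMB (0.53), ARL14 (0.78) and RNASE7 (0.43). MT1X (0.05) and MT2A (0.02) did not move with siEGFR beyond their errors of 0.07, and read -0.44 and -0.47 with cetuximab and scramble siRNA, where neither passed. The siRNA and antibody experiments have different control arrays, and whether the responses of a gene differ between them was not tested.

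**Figure D5:**
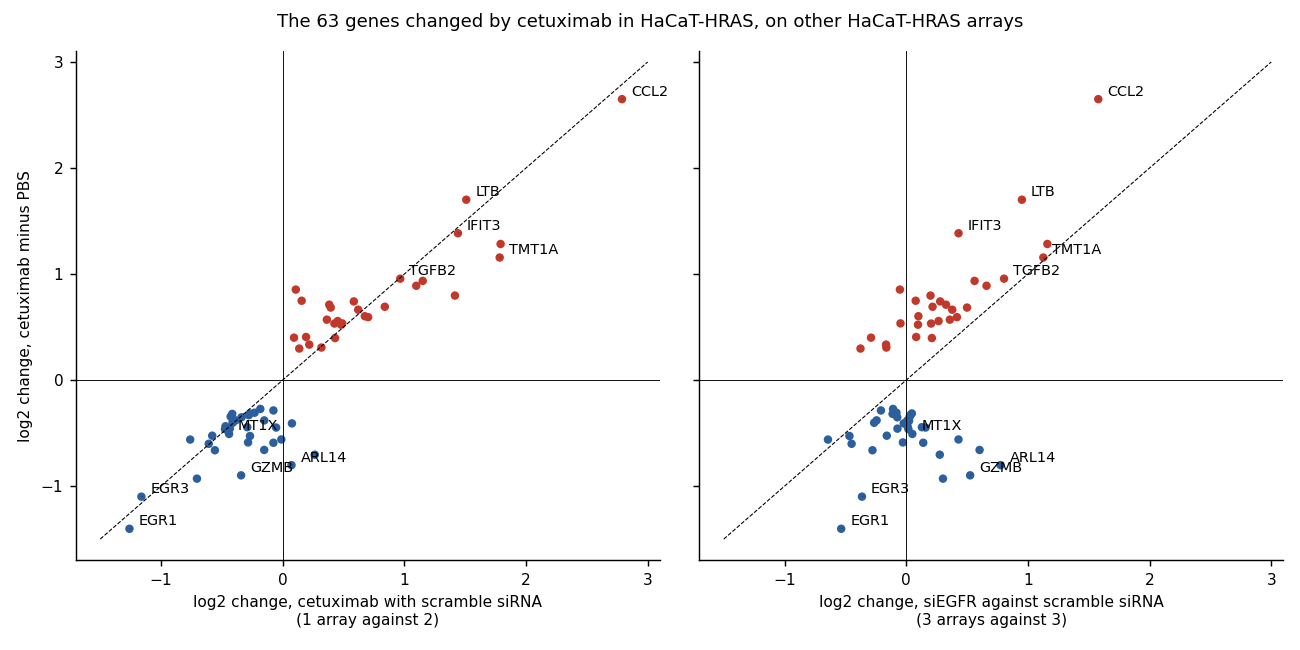
Log2 change of the 63 genes under cetuximab in HaCaT-HRAS (vertical axis) against their change on other HaCaT-HRAS arrays (horizontal axis), cetuximab with scramble siRNA on the left and siEGFR on the right, red for genes that rose and blue for genes that fell. On the left 29 red and 31 blue points share the sign of the vertical axis, beside 47.5% of all genes above 0 and 52.5% below. On the right 23 red and 17 blue points do, beside 48.3% of all genes above 0 and 51.7% below.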

How the data were processed

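The deposited file holds log2 expression values per probe set for 96 Affymetrix U133 Plus 2.0 arrays, which lie between 2.65 and 14.5. The study's methods describe normalization by frozen robust multi-array analysis, a surrogate-variable batch correction and removal of outlying arrays by the authors. The sources used here do not give how many of these steps went into the deposited log2 values. Groups and batches came from the labels.

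Each of 19775 genes was represented by 1 named probe set, that of the highest mean level on the 89 arrays of HaCaT construct lines, without a filter on low values. These arrays were fitted in 1 model with limma 3.58.1 (R 4.3.3), with a term for each of 40 groups and for batch (J, E and M), leaving 47 residual degrees of freedom. Within a comparison, p-values were adjusted by the Benjamini-Hochberg method across the genes tested. The difference between lines was a contrast of contrasts. The number of arrays limits the precision. Probe sets of different genes were set against each other only through the median level of all genes, as a mark of low signal.

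The arrays described, the gene lists and the tests were chosen with earlier results of these data known. Genes were named by rule, taking, from the changed genes at or above the median level (6.08), the 12 that rose most and the 12 that fell most, with the 6 largest differences from HaCaT-Mock each way, the 3 list members with the lowest p, and EGFR, HRAS, TFAP2A and its targets named by the study. Other genes in the text, most of them changed genes of lower level, were named after their values were seen. The script was tested on simulated data. Promoters are the 200 bases before RefSeq gene starts (GRCh38.p14), searched on both strands. The 35116 windows belong to 27305 symbols, so shares per window and counts per gene are not in the same unit. The alternatives were array weights, batch J alone, no batch term, fewer arrays in the fit, other probe set rules, quantile normalization, a trend with robust variances, a replicate block and leaving out each array.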

Additional observations from a re-analysis of the deposited data

Results flagged for a closer look

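The response to cetuximab differed between HaCaT-HRAS and the other lines, by a test of the difference itself (limma interaction contrast, adjusted p under 0.05), for 287 genes against HaCaT-Mock, 429 against HaCaT-EGFR and 305 against HaCaT-PIK3CA. Of the 78 genes followed under the processing alternatives, 30 passed at least 1 of these tests. The values below are log2 changes in HaCaT-HRAS minus those in the other line. The HaCaT-HRAS arrays are shared by the 3 tests, and the cause of the differences was not tested.

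Against HaCaT-Mock the difference was above 0 for EGR1 (1.73), IER3 (0.91), ETV5 (2.61), DUSP6 (2.17), DUSP4 (1.38), HBEGF (1.00), NRG1 (0.71), IL1B (1.07), IL1R2 (1.90), SERPINE2 (0.86), VEGFA (0.75), NT5E (2.20), LINC00973 (2.50) and NOG (1.78). It was below 0 for IL24 (-0.71), SLC2A12 (-0.90), KRT4 (-2.73), KRT13 (-1.81), IVL (-1.78), ID1 (-1.64), TNFSF10 (-1.94), RGS2 (-1.60), MX1 (-1.39) and XAF1 (-1.67).

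Against HaCaT-EGFR the difference was above 0 for EGR1 (2.70), IER3 (1.16), ETV5 (2.96), DUSP6 (2.98), DUSP4 (1.31), HBEGF (1.25), NRG1 (1.20), IL1B (0.92), IL1R2 (1.60), TNC (0.74), SERPINE2 (0.73), CPVL (1.13), VEGFA (0.98), NT5E (1.67), LINC00973 (1.87) and NOG (1.44). It was below 0 for MATN2 (-0.84), ARL14 (-0.97), SLC2A12 (-1.01), TFAP2A (-0.38), BMP4 (-0.53), KRT4 (-2.82), KRT13 (-2.02), IVL (-2.31), ID1 (-1.52) and TNFSF10 (-1.40).

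Against HaCaT-PIK3CA the difference was above 0 for EGR1 (2.26), IER3 (0.90), ETV5 (2.53), DUSP6 (2.05), DUSP4 (1.02), HBEGF (0.94), NRG1 (0.87), IL1B (1.17), IL1R2 (2.29), CPVL (0.97), VEGFA (0.76), NT5E (2.40), LINC00973 (1.90) and NOG (1.49). It was below 0 for SLC2A12 (-0.94), KRT4 (-2.31), KRT13 (-1.90), IVL (-1.48), ID1 (-1.66), TNFSF10 (-1.56), RGS2 (-1.21), MX1 (-1.01) and XAF1 (-1.41).

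Single outlying values were not tested in groups of 3 arrays. By limma's array weights, gefitinib replicate 1 of HaCaT-HRAS (0.059) and replicate 3 (0.408) stood below the PBS, cetuximab and afatinib arrays of that line (0.828 to 1.71).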

How the results depend on the processing

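The count of changed genes moved with the processing and the directions of the changed genes did not. Over 745 values of the 42 changed genes followed, none reversed, 542 kept an adjusted p under 0.05 and 203 did not. EGR1, LTB and WFDC21P passed under every alternative run. Of 641 values of the 36 followed genes that were not changed, 40 passed and 21 reversed. The count of 63 became 1108 with array weights, 139 in a fit of the 6 arrays alone (44 of the 63 among them), 123 without the gefitinib arrays of HaCaT-HRAS (all 63 kept), 97 when only genes at or above the median were tested, 19 with no batch term and 8 with batch J alone. It was 85 over all probe sets, 85 by the probe set rule of the study, 75 with a trend and robust variances, 72 after quantile normalization and 53 in a fit of 12 HaCaT-HRAS arrays, with 26 of the 63. Leaving out 1 array gave 28 to 48. By replicate number, the deviations of the PBS and cetuximab arrays of batch J did not correlate (r = -0.02). This cannot settle whether the samples were paired, because batch M labels carry no replicate number and the deposited values may be batch-corrected. A replicate block gave 59 genes on 6 arrays, 25 of the 63 among them, and 45 on 12, with 24 of the 63.

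With array weights the other counts were 1629 for the difference from HaCaT-Mock, 2253 from HaCaT-EGFR, 1468 from HaCaT-PIK3CA, 562 for cetuximab against afatinib, 2 against gefitinib, 3043 for siEGFR and 116 for cetuximab with scramble siRNA. With batch J alone they were 26, 111, 40, 2, 2300 and 456, and the last comparison could not be fitted. By the probe set rule of the study cetuximab with scramble siRNA gave 11. Leaving out 1 array gave 168 to 259, 176 to 365, 150 to 342, 0 to 13, 2 to 5090, 808 to 990 and 4 to 10. Those that moved the difference from HaCaT-EGFR by over 1.5 times were cetuximab replicate 2 (282) and PBS replicates 1 (176) and 2 (236) of HaCaT-EGFR. For HaCaT-PIK3CA they were cetuximab replicates 2 (192) and 3 (185) and PBS replicates 1 (182) and 2 (150) of HaCaT-HRAS, and cetuximab replicate 2 (153) and PBS replicates 2 (198) and 3 (199) of HaCaT-PIK3CA. The cause of these shifts was not tested.

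The reversals lay near 0. Batch J alone gave IGF1R -0.0219, BMP2 -0.0633 and KRT13 -0.1687, the probe set rule of the study IGF1R -0.0090, quantile normalization VEGFA 0.0053 and array weights IVL 0.0012. Over the fits that each left out 1 array, ETV5 ran from -0.1654 to 0.0607, TFAP2A from -0.0077 to 0.0515, IGF1R from -0.0212 to 0.0794, BMP2 from -0.0511 to 0.1077 and VEGFA from -0.0382 to 0.0229. KRT4 ran from -0.0360 to 0.2725, KRT13 from -0.1130 to 0.6158, IVL from -0.0279 to 0.0246 and XAF1 from -0.1301 to 0.3128. With 3 arrays a side, small changes and genes near the background level are the least certain.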

Other observations

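The genes that moved most under cetuximab in HaCaT-Mock were followed into HaCaT-HRAS, whose arrays did not choose them. The 100 changed genes with the largest rise in HaCaT-Mock had a median change of 1.5 there and 0.44 in HaCaT-HRAS, where 91 of them were above 0 and 62 were wholly higher in cetuximab, beside 5.29% of all genes. The 100 with the largest fall had a median of -1.14 in HaCaT-Mock and -0.34 in HaCaT-HRAS, where 92 were below 0 and 49 wholly lower, beside 5.62%. Of these genes 8 passed as higher and 9 as lower in HaCaT-HRAS. Because the genes were chosen for their size in HaCaT-Mock, their medians there are not a fair measure of the gap between the lines. The 100 genes that rose most under siEGFR in HaCaT-HRAS, with a median of 0.89 there, had a median of 0.04 under cetuximab in the same line, with 60 above 0 and 15 wholly higher.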
